A study of Mus musculus with 2 samples.

Results

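The expression of 10 genes of store-operated calcium entry and NFAT signalling was measured in the mouse line CH12.LX, immortalized cells of a B cell lymphoma: the endoplasmic reticulum release channels Itpr1, Itpr2 and Itpr3, the calcium sensors Stim1 and Stim2, the plasma membrane channels Orai1 and Orai2, and the transcription factors Nfatc1, Nfatc2 and Nfatc3. The genes were taken by symbol and matched by Ensembl identifier to the gene tables of both libraries, which gave all 10 of them among 43346 Ensembl entries. Polyadenylated RNA was sequenced with single-end reads in 2 libraries from separate biosamples, labelled biological replicates 1 and 2. The cells are of strain B10.H-2aH-4bp/Wts and labelled female, age is given as unknown, and no treatment, allele or second line is labelled, so there is 1 group and no comparison between conditions. What a stimulus does to these genes is outside the design, and both libraries come from 1 line.

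A receptor that activates phospholipase C makes inositol trisphosphate (IP3), and IP3 opens its receptors on the endoplasmic reticulum so that stored calcium leaves. STIM proteins span that membrane, sense the loss of stored calcium and open ORAI channels in the plasma membrane, which is called store-operated calcium entry. The entering calcium binds calmodulin and turns on the phosphatase calcineurin, which dephosphorylates NFAT proteins and lets them enter the nucleus. In B cells this chain runs downstream of the antigen receptor.

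All 10 genes were expressed, and at 3 of the 4 steps 1 paralogue stood above the others in both libraries: Itpr1 among the IP3 receptors, Orai1 among the ORAI channels and Nfatc1 among the calcium-regulated NFAT factors. At the STIM step the 2 genes had close levels and their order differed between the libraries. Levels are given in TPM, a unit of relative transcript abundance that corrects for gene length and for the depth of the library. Each of the 10 genes reached 1 TPM in both libraries, the level used here to call a gene detected, against 48.0% of 21474 protein-coding genes. The 10 genes were chosen with earlier results of these data known, so these shares are a description and not a test. At a limit of 5 TPM in both libraries 7 of the 10 passed, and the 3 below it were Orai2, Itpr2 and Nfatc2. The means ran from 2.51 TPM for Itpr2 to 118.57 TPM for Nfatc1, a 47.2-fold range. The median of the 10 genes was 12.94 TPM, against 0.768 TPM over all protein-coding genes and 21.03 TPM over the detected ones. These are amounts in a bulk sample, in which fewer cells expressing a gene and less RNA per cell cannot be told apart.

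**Figure D1:**
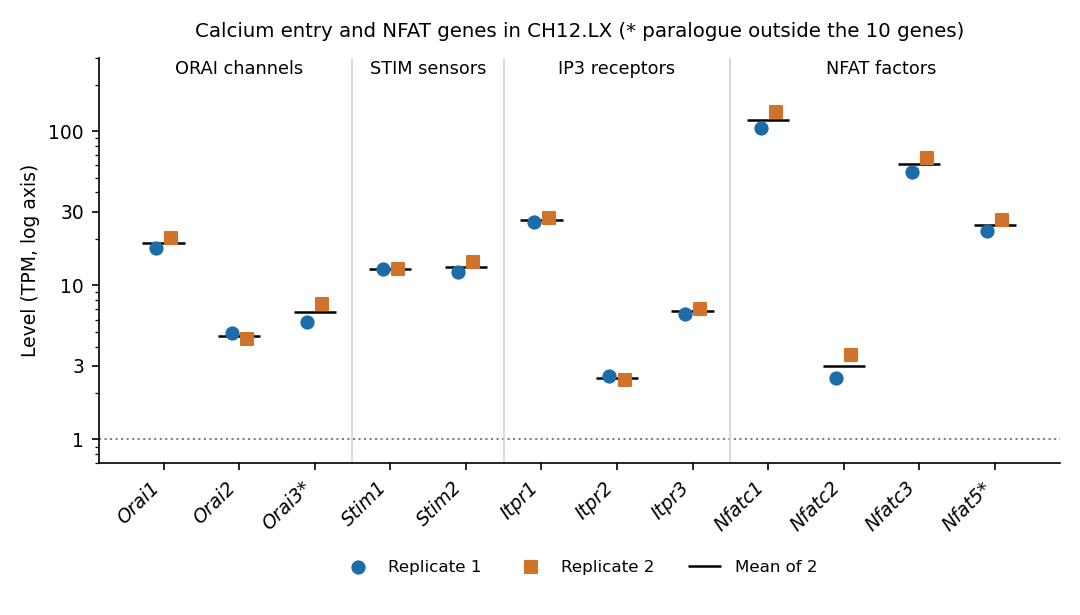
Level in TPM (log axis) of the 10 genes and of 2 paralogues outside them (marked with an asterisk) in replicate 1 (circles) and replicate 2 (squares) of CH12.LX, with a bar at the mean of the 2 libraries and a dotted line at the 1 TPM detection level. Nfatc1 is highest at 104.14 and 133.0 TPM, and Itpr2, Nfatc2 and Orai2 lie between 2.44 and 4.94 TPM.

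The release step was led by Itpr1, which encodes the type 1 IP3 receptor. Itpr1, on chromosome 6 from 108213096 to 108551109 on the plus strand, had 25.7 TPM in replicate 1 and 27.5 TPM in replicate 2 (26.6 ± 1.28, SD, n = 2). Itpr3, the type 3 receptor, on chromosome 17 from 27057304 to 27122223 on the plus strand, had 6.55 and 7.02 TPM (6.79 ± 0.332). Itpr2, the type 2 receptor, on chromosome 6 from 146108299 to 146502223 on the minus strand, had 2.58 and 2.44 TPM (2.51 ± 0.099). The 3 receptors did not overlap in level over the 2 libraries. Itpr1 was 3.93-fold above Itpr3 in replicate 1 and 3.92-fold above it in replicate 2, and above Itpr2 by 9.97-fold and 11.3-fold. As a share of the summed TPM of the 3 receptors, Itpr1 made up 73.8% in replicate 1 and 74.4% in replicate 2 (74.1 ± 0.44%). The 3 genes are of like length, and the share of Itpr1 in the expected counts, the deposited read numbers not corrected for length, was close to this. It was 75.1% in replicate 1 (4133 of 5504 counts, Wilson 95% interval 73.9 to 76.2%) and 75.0% in replicate 2 (4919 of 6555, 73.98 to 76.07%). Such intervals are computed within 1 library and hold counting error alone, with no spread between libraries. Reads lacking molecular identifiers need not be separate molecules, so the intervals may be too narrow even for that error. Of the 10 genes Itpr2 moved most between the deposited estimates: the posterior mean, a second estimate from the same reads, gave 3.59 and 3.39 TPM, 39.0% higher on average.

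The sensing step was shared. Stim1, whose product opens ORAI channels when the store is emptied, lies on chromosome 7 from 102267806 to 102437319 on the plus strand and had 12.73 TPM in replicate 1 and 12.76 TPM in replicate 2 (12.7 ± 0.021, SD, n = 2). Stim2, whose product responds to smaller losses of stored calcium, lies on chromosome 5 from 53998499 to 54121057 on the plus strand and had 12.15 and 14.11 TPM (13.1 ± 1.39). The ranges of the 2 sensors overlapped: Stim1 was 1.05 times Stim2 in replicate 1 and 0.904 times Stim2 in replicate 2. Stim2 thus held 48.8% of the summed TPM of the pair in replicate 1 and 52.5% in replicate 2 (50.7 ± 2.6%). By counts, without length, Stim1 had the larger number in both libraries, with 742 against 607 counts in replicate 1 and 827 against 751 in replicate 2. No leading STIM gene could be named from these libraries.

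At the entry step Orai1, which encodes the pore of the calcium release-activated channel, stood above its paralogues in both libraries. Orai1, on chromosome 5 from 123015074 to 123030456 on the plus strand, had 17.6 TPM in replicate 1 and 20.2 TPM in replicate 2 (18.9 ± 1.87, SD, n = 2). Orai2, whose product can join ORAI1 in mixed channels, lies on chromosome 5 from 136147459 to 136170713 on the minus strand and had 4.94 and 4.49 TPM (4.72 ± 0.318). Orai3, the other paralogue of the family and not among the 10 genes, had 5.79 and 7.55 TPM (6.67 ± 1.25). Orai1 was 3.56-fold and 4.51-fold above Orai2, and 3.04-fold and 2.68-fold above Orai3. Its share of the summed TPM of the 3 channels was 62.1% in replicate 1 and 62.7% in replicate 2 (62.4 ± 0.42%). The share of Orai2 was 17.4% in replicate 1 and 13.9% in replicate 2. By counts the share of Orai1 was lower, at 50.6% (506 of 1000 counts, 47.5 to 53.7%) and 51.4% (615 of 1197, 48.6 to 54.2%). Orai1 remained first on that scale, but the lower pair changed places: Orai2 had 308 and 311 counts, and Orai3, a shorter gene, 186 and 271.

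The promoters of Orai1 and Orai2 are shown since these 2 channels differed most within the step in level. The sequences are from RefSeq on GRCm38.p6, the assembly of the tables, and run 5′ to 3′ on the strand of the gene from 250 bases before the annotated start to 50 bases after it. Capitals mark the core of the NFAT binding motif, GGAAA on the printed strand or TTTCC for the other strand. At Orai1 the window is chr5:123014824-123015123 on the plus strand and at Orai2 it is chr5:136170607-136170906 on the minus strand.
Orai1: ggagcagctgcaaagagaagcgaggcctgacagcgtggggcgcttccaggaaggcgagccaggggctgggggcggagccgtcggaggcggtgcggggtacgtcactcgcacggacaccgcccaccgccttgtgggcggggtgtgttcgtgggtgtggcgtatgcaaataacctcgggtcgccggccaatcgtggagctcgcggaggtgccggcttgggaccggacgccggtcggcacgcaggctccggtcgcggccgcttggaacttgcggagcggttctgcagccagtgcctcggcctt
Orai2: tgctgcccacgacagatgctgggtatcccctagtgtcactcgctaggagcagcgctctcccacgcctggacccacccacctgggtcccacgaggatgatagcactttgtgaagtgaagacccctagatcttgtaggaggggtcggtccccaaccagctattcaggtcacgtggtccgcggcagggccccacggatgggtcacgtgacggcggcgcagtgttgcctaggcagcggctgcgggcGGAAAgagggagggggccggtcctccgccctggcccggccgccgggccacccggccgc
The Orai1 window held 0 matches and the Orai2 window 1, and at least 1 match was present in 61.3% of 32851 promoters of this length. Of the 10 genes, 8 had a promoter that was searched. No promoter entry was available for Itpr1, and Nfatc1 was left out of the search. The windows of Stim1, Stim2, Itpr2 and Itpr3 held 0 matches, and the 2 annotated starts of Nfatc3 held 1 and 0. A match is a string in a window and not a bound site. The Orai1 window was 70.3% G and C, and that of Orai2 68.0%, against a median of 52.7% over all promoters.

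**Figure D2:**
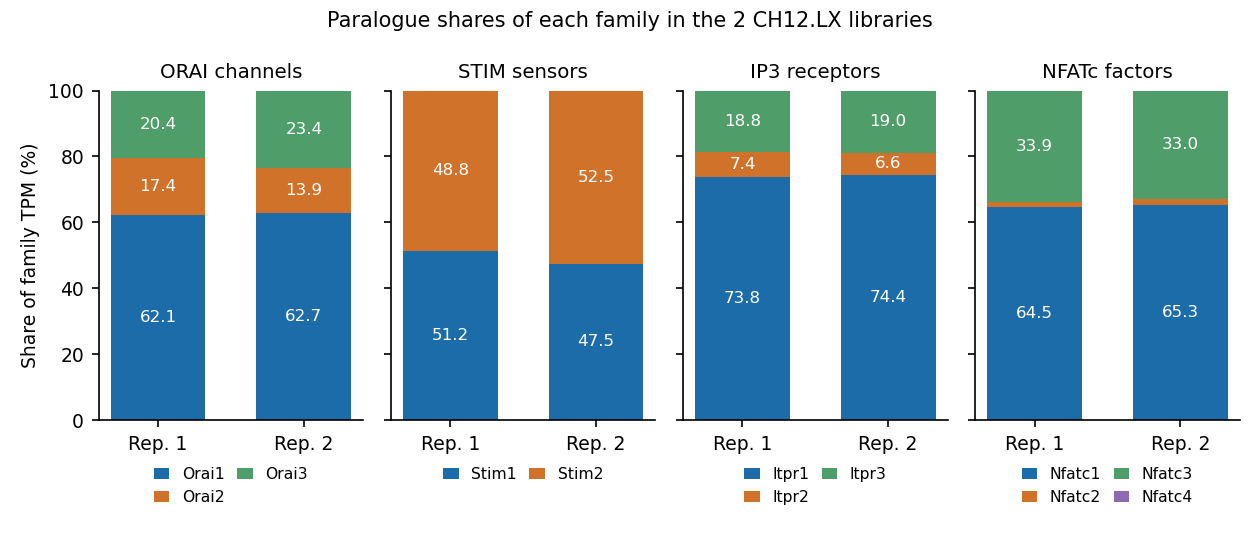
Share of the summed family TPM (%) of each paralogue in replicates 1 and 2 of CH12.LX, one panel per family, with segments of 5% or less not numbered. Itpr1, Orai1 and Nfatc1 hold between 62.1 and 74.4% in both libraries, while Stim1 and Stim2 divide their family at 51.2 and 48.8% in replicate 1 and 47.5 and 52.5% in replicate 2.

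Among the IP3 receptor, STIM, ORAI and NFAT steps, the NFAT step had the highest summed level. Nfatc1, on chromosome 18 from 80606205 to 80713071 on the minus strand, had 104.14 TPM in replicate 1 and 133.0 TPM in replicate 2 (118.57 ± 20.4, SD, n = 2) and lay at percentile 94.4 of the protein-coding genes. Nfatc3, on chromosome 8 from 106058840 to 106130537 on the plus strand, had 54.7 and 67.2 TPM (60.9 ± 8.83), at percentile 89.1. Nfatc2, on chromosome 2 from 168476410 to 168601657 on the minus strand, had 2.51 and 3.52 TPM (3.02 ± 0.714), at percentile 56.7. All 3 encode factors that calcineurin dephosphorylates. Nfatc4, the remaining calcineurin-regulated factor, was not detected, with 1 count in replicate 1 and 0 in replicate 2, where 3 counts would be 0.0457 TPM. Nfatc1 was 1.91-fold and 1.98-fold above Nfatc3, and 41.5-fold and 37.8-fold above Nfatc2. Its share of the summed TPM of Nfatc1 to Nfatc4 was 64.5% in replicate 1 and 65.3% in replicate 2 (64.9 ± 0.53%), and Nfatc2 held 1.56% and 1.73%. By counts Nfatc1 held 57.8% (7670 of 13278, 56.9 to 58.6%) and 58.6% (10896 of 18588, 57.9 to 59.3%). Nfat5, a family member that responds to osmotic stress and is not regulated by calcineurin, had 22.4 and 26.7 TPM (24.5 ± 3.03).

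Over the 10 genes the order by mean level was Nfatc1, Nfatc3, Itpr1, Orai1, Stim2, Stim1, Itpr3, Orai2, Nfatc2 and Itpr2. Of the 9 pairs of neighbours in this order, 7 did not overlap over the 2 libraries. The overlapping pairs were Stim2 with Stim1, and Nfatc2 with Itpr2. The smallest ratio among those 7 was that of Orai2 over Nfatc2 in replicate 2, at 1.28-fold, against 1.97-fold in replicate 1. Nfatc3 over Itpr1 was the widest step in both libraries, at 2.13-fold and 2.44-fold. Summed by step, the NFATc factors had 161.35 and 203.68 TPM, the IP3 receptors 34.9 and 37.0 TPM, the ORAI channels 28.3 and 32.3 TPM, and the STIM sensors 24.9 and 26.9 TPM. The assignment of reads to the 10 genes was close to certain: the deposited posterior SD of the count was 0 in both libraries for 8 of them and at most 0.062% of the count for Itpr3 and Nfatc3. Whether the reads were counted by strand is not given in the sources used here, so reads of overlapping antisense genes cannot be told apart from these. The overlaps with genes in the tables were small: 233 exon bases of Itpr3 with Itpr3os (0.09 TPM in each library) and 219 exon bases of Nfatc3 with Esrp2 (0.28 and 0.18 TPM).

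Between the 2 libraries, Nfatc1, Nfatc2, Nfatc3 and Itpr1 were lower in replicate 1 by more than counting error, and the other 6 genes did not pass the test. The test was a two-sided exact binomial test of the 2 counts of each gene, scaled with TMM, with Benjamini-Hochberg adjustment over all genes tested. What it compares is these libraries, with no condition involved, and counting error is the sole error in it. Nfatc1 had 7670 counts in replicate 1 and 10896 in replicate 2, a log2 ratio of replicate 1 over replicate 2 of -0.37 (exact binomial adjusted p = 4.73e-65). The log2 ratio was -0.31 for Nfatc3 (exact binomial adjusted p = 5.3e-32), -0.45 for Nfatc2 (exact binomial adjusted p = 0.000618) and -0.11 for Itpr1 (exact binomial adjusted p = 0.00103). These 4 of the 10 genes passed the threshold of 0.05, all lower in replicate 1. The same test called 30.2% of all 15340 genes, with 14.5% of the 15340 called lower and 15.7% called higher in replicate 1. Each of the 10 averaged 100 counts or more, and of all 10099 genes that did so it called 38.6%, so the share of the 10 is near the background. For the other 6 the log2 ratio was -0.14 for Orai1, 0.12 for Orai2, -0.02 for Stim1, -0.17 for Stim2, -0.12 for Itpr2 and -0.12 for Itpr3, with exact binomial adjusted p between 0.0945 and 0.936. The median log2 ratio of the 10 genes was -0.13, against a median of about 0 (-0.001) over all genes tested.

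A test that includes a spread between libraries can only be run here with a dispersion taken from the difference of the same 2 libraries, so that few calls are built into it and a lack of calls says little about the 10 genes. edgeR's exact negative binomial test, with the common dispersion of all genes (a coefficient of variation of 19.8%), called 2.54% of the 15340 genes and 0 of the 10, with 0 of them at an unadjusted p under 0.05. That dispersion includes genes whose reads are shared with near copies. With the dispersion of 12711 genes whose reads were assigned with certainty (8.85%), an alternative added after the data were seen, 0 of the 10 were called and 2 were at an unadjusted p under 0.05: Nfatc1 (negative binomial exact p = 0.0426) and Nfatc2 (negative binomial exact p = 0.0366). Of the 4 NFAT genes with enough counts, Nfat5 included, all 4 passed the binomial test as lower in replicate 1, against 14.5% of all genes tested. That share includes genes with few counts. Of genes that average 100 counts or more, as these 4 do, the test called 38.6% in either direction, and the part called lower is not given here. Markers of B cells moved the same way: 7 of 8 passed as lower in replicate 1, against the same 14.5% of all genes, and 0 as higher. These 8 markers also average 100 counts or more, where 38.6% of genes were called in either direction. None of the markers was at 0, and they had summed levels of 1616.71 TPM in replicate 1 and 1734.1 TPM in replicate 2. The median log2 ratio was -0.34 over the 4 NFAT genes and -0.15 over the 8 markers. The part of the markers in the difference of the NFAT genes was not tested.

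**Figure D3:**
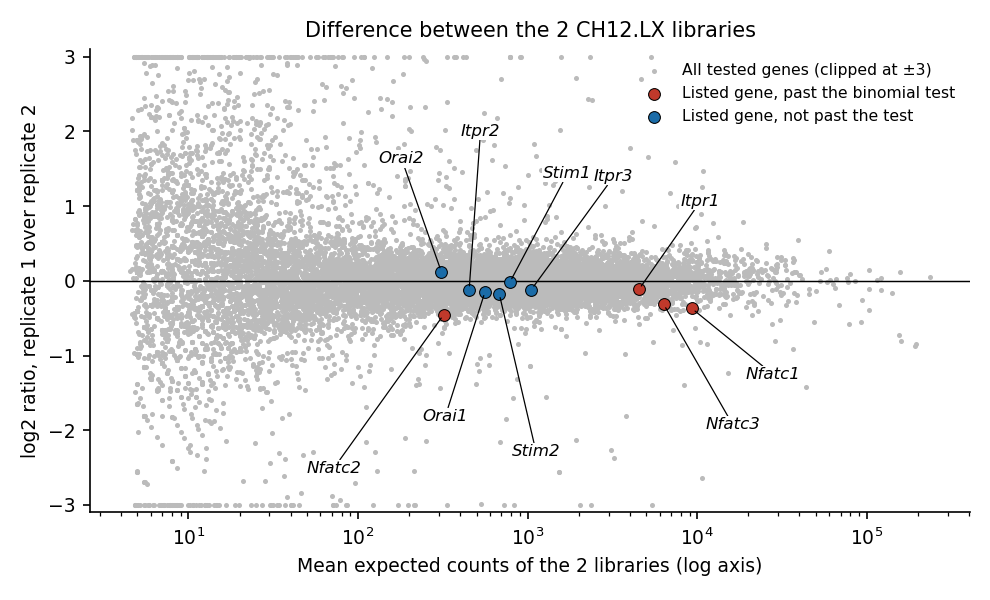
log2 ratio of replicate 1 over replicate 2 (vertical) against the mean expected counts of the 2 libraries (horizontal, log axis) for all 15340 genes tested (grey, drawn at ±3 where beyond it) and the 10 genes (red where past the exact binomial test, blue where not). The 10 genes lie between -0.45 and 0.12 and inside the cloud of genes with like counts, and 96.0% of the 10099 genes that average 100 counts or more lie within 0.5 of 0.

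The deposited tables also give the percent of the expression of each gene on each annotated transcript. These percents are estimates from single-end reads. For Orai2, Stim1, Itpr1, Itpr3 and Nfatc3 the tables hold 1 transcript each, so no choice among transcripts was measured. The GENCODE M21 annotation used here for names holds 4 transcripts of Orai2, 9 of Stim1, 13 of Itpr1, 2 of Itpr3 and 7 of Nfatc3.

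Nfatc1 was carried mostly by 1 transcript in both libraries. In lymphocytes this gene is known for an inducible upstream promoter and a downstream promoter, and for alternative ends that give short and long proteins. The transcript Nfatc1-201, which begins at the downstream start (80708173) and has the short 3′ end (80647435), held 85.2% in replicate 1 and 82.3% in replicate 2, at 88.8 and 109.42 TPM. The transcripts Nfatc1-202 and Nfatc1-204 begin at the upstream starts (80713058 and 80712766 in GENCODE M21) and run to the long 3′ end (80606205). Together they held 14.8% and 17.7%, at 15.4 and 23.6 TPM. Their deposited models were 4607 and 4896 bases long, against 4594 and 4591 bases in GENCODE M21, so their exact deposited starts are not given here. Nfatc1-203, with the downstream start and the long end, was listed at 0. The deposited tables have no model with the upstream start and the short end, which GENCODE M21 has as Nfatc1-206. The use of starts and the use of ends therefore cannot be told apart for this gene.

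Nfatc2, the low NFAT member, was spread over several models. The transcripts that begin near 168590365, of which Nfatc2-204 and Nfatc2-202 had most of the reads, held 58.8% in replicate 1 and 54.3% in replicate 2 (1.47 and 1.91 TPM). Between these 2 models the deposited percents are unsettled: Nfatc2-204 had 57.1% and 20.9% but 24.9% and 15.5% by the posterior mean, and Nfatc2-202 had 1.74% and 32.4% but 14.93% and 26.03% by the posterior mean. Nfatc2-208, a processed transcript with an internal start at 168552276, held 41.2% and 44.2%. The transcripts that begin at the upstream start near 168601657 had 0 TPM in replicate 1 and 0.06 TPM in replicate 2. The promoters of the 2 outer starts are printed in the same way as above, since they set the start with reads beside the start with next to none. The downstream window is chr2:168590316-168590615 and the upstream window chr2:168601608-168601907, both on the minus strand of GRCm38.p6.
Nfatc2 downstream start: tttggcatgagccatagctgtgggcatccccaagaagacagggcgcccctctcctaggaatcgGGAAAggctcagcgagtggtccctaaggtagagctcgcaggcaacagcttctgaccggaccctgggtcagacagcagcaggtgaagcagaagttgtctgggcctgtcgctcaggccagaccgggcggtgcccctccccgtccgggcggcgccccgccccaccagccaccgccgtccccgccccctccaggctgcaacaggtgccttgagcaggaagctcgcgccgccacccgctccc
Nfatc2 upstream start: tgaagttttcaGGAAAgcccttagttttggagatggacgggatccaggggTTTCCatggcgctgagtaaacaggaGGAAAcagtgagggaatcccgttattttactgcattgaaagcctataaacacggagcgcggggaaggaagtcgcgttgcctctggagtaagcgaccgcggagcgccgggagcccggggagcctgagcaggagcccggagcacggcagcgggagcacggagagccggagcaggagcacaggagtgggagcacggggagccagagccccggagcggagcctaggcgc
The downstream window, at the start with reads, held 1 match to the NFAT core motif and was 68.0% G and C. The upstream window held 3 matches and was 62.0% G and C.

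For Orai1, Stim2 and Itpr2 the split between the main transcripts was uneven between the libraries, and no test was run on it. Orai1-202 held 82.4% of Orai1 in replicate 1 and 62.9% in replicate 2, and Orai1-201, which shares its start and ends at 123030156 rather than 123030456, 16.4% and 33.2%. For Stim2, ENSMUST00000071083 held 61.9% and 45.7% and ENSMUST00000152812 held 35.2% and 49.6%. Neither has an entry in GENCODE M21, so their type and ends are not given here. The transcripts of Itpr2 that share the start near 146501878 together held 93.8% in replicate 1 and 94.7% in replicate 2. The deposited model of Itpr2-201 was 11699 bases long, against 8331 bases in GENCODE M21, so its deposited 3′ end is not given here. Of the whole gene, Itpr2-208, a retained-intron model of the shared start, held 13.65% in replicate 1 and 0% in replicate 2. On the same scale Itpr2-201 had 74.5% and 50.1%, and Itpr2-202 had 5.71% and 44.8%. By the posterior mean these were 40.8% and 35.0% for Itpr2-201, and 11.97% and 28% for Itpr2-202, so the gap between the libraries was smaller on that estimate. Itpr2 had 411 counts in replicate 1 and 492 in replicate 2, so these percents rest on few reads.

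**Figure D4:**
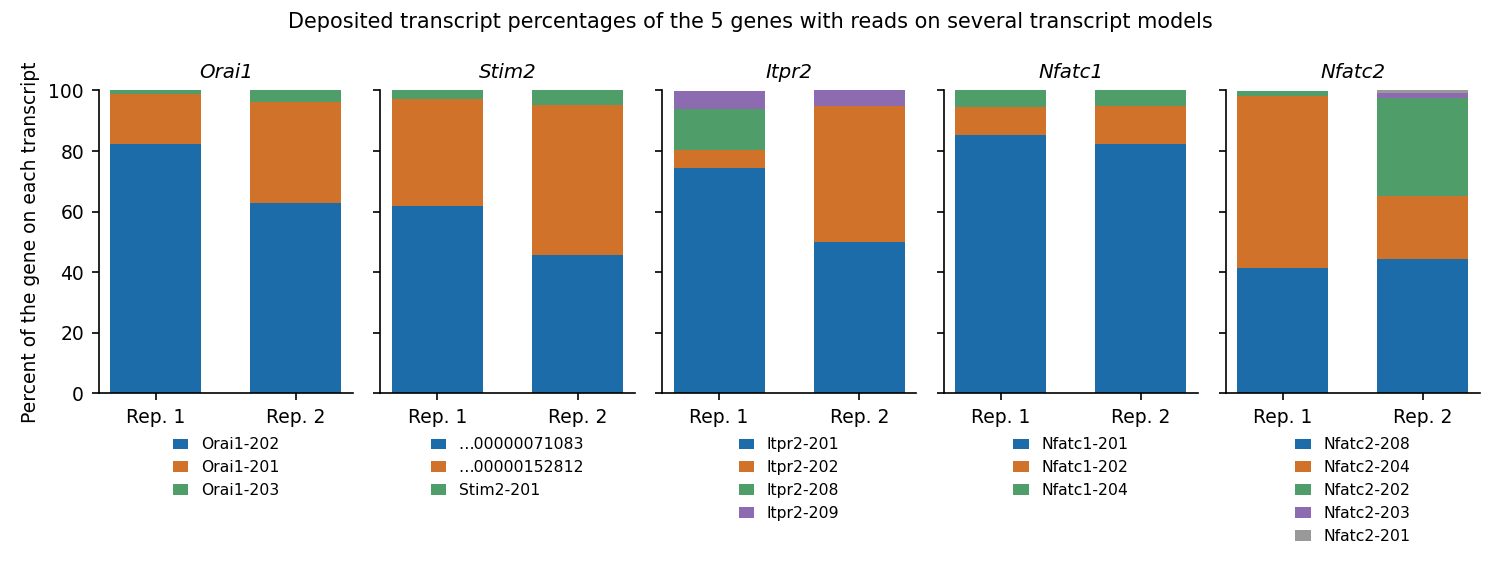
Deposited percent of the expression of each gene on each transcript, in replicates 1 and 2 of CH12.LX, for the 5 genes with reads on several models (for 2 Stim2 models the legend gives the end of the Ensembl identifier). Nfatc1-201 holds 85.2 and 82.3% of its gene, whereas Orai1-202 (82.4 and 62.9%), Itpr2-201 (74.5 and 50.1%) and Nfatc2-204 (57.1 and 20.9%) have different shares in the 2 libraries.

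The genes around the chain were described with 11 lists, and most of the genes listed between the antigen receptor and calcineurin were detected. At the same limit 48.0% of all protein-coding genes were detected, and the lists were chosen with earlier results of these data known. The pumps and exchangers (6 of 12), the other calcium channels (11 of 20) and the NFAT partners and targets (12 of 21) were near that share. The median level of a list ran from 1.80 TPM for the other calcium channels to 136.37 TPM for the reticulum buffers, and nothing was tested on these medians. Upstream of the IP3 receptors, 12 of 15 genes listed for IP3 production and removal were detected, a list that also holds signalling genes around phospholipase C. The highest were the adaptor Blnk (200.58 and 208.88 TPM in replicates 1 and 2), phospholipase C gamma 2, Plcg2 (137.29 and 144.13), the kinase Syk (132.44 and 136.07) and the phosphatase Inpp5d (85.7 and 83.6). Itpka, Plcb4 and Plcb1 were not detected. In the binomial test 1 of the 13 genes tested was higher and 4 were lower in replicate 1. For this and the other lists, the share over all genes tested is 15.7% called higher and 14.5% called lower, and 38.6% called in either direction among genes that average 100 counts or more.

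Genes whose products bind IP3 receptors or control their turnover were detected for 10 of 14, above Itpr1 itself in 4 cases. These were Ahcyl2 (136.0 and 149.3 TPM) and Ahcyl1 (66.4 and 61.2), which encode relatives of adenosylhomocysteinase that bind IP3 receptors, Lrmp (141.99 and 122.12), a membrane protein of lymphoid cells, and Grina (31.4 and 31.6). Mrvi1, Bok, Ncs1 and Calb1 were not detected. The binomial test called 1 of the 10 genes tested higher and 3 lower in replicate 1.

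Store-operated entry has regulators of its own, and 10 of the 13 measured were detected, with a median of 19.2 TPM. They were led by Surf4 (109.39 and 118.02 TPM), which binds STIM1, Ubqln1 (90.0 and 92.9), which binds ORAI1, the endoplasmic reticulum calcium channel Tmco1 (72.0 and 93.1) and the septin Sept2 (80.2 and 83.2). Cracr2b, Tmem178 and Tmem178b were not detected. Of the 10 genes tested, 0 were called higher and 4 lower in replicate 1. Other calcium channels of the plasma membrane and of the stores were detected for 11 of 20, with a median of 1.80 TPM. Trpv2 (32.78 and 33.96 TPM), Cacna1s (32.8 and 24.9), Piezo1 (20.6 and 30.9) and Trpm7 (20.2 and 17.6) were the highest of them. Each had a mean TPM above that of Stim1. By counts, without length, Trpv2, Piezo1 and Trpm7 were also above Stim1 in both libraries, but Cacna1s was below it. Cacna1s had 522 counts against 742 for Stim1 in replicate 1, and 438 against 827 in replicate 2. The place of Cacna1s above Stim1 thus rests on the length correction. Of the 16 genes of this channel list tested, 1 was called higher and 2 lower in replicate 1. The ryanodine receptors Ryr1, Ryr2 and Ryr3, the other release channels of the reticulum, were below 1 TPM in both libraries and are named here after their values were seen.

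For refilling and storage, 6 of 12 pumps and exchangers were detected, led by the reticulum pumps Atp2a3 (197.64 and 205.38 TPM) and Atp2a2 (125.9 and 124.87), the Golgi pump Atp2c1 (47.1 and 44.1) and the plasma membrane pump Atp2b1 (21.8 and 22.4). Calcium-binding proteins of the reticulum were detected for 9 of 11, with Calr at 1247.03 and 844.82 TPM, Hsp90b1 at 880.03 and 853.22, Hspa5 at 639.28 and 581.47 and Canx at 503.48 and 436.98. Casq1 and Casq2 were not detected. The binomial test called 7 of the 10 buffers tested as higher in replicate 1, against 15.7% of all genes, and 0 as lower (median log2 ratio 0.09). Most of these buffers average 100 counts or more, where 38.6% of genes were called in either direction. All 11 measured genes of mitochondrial calcium uptake were detected, led by the porins Vdac2 (398.52 and 336.46 TPM), Vdac1 (255.81 and 231.99) and Vdac3 (179.82 and 165.18) and by Smdt1 (93.8 and 101.27). Of these 11, 4 were called higher and 3 lower in replicate 1, and of the 7 pumps and exchangers tested 0 were called higher and 2 lower.

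Between calcium and NFAT, 7 of 8 calmodulin and calcineurin genes were detected. Calm3 (596.86 and 458.73 TPM) and Calm2 (484.56 and 429.97), which encode calmodulin, were above Nfatc1, and the catalytic subunit Ppp3ca stood at 103.1 and 95.5 TPM, below Nfatc1 in both libraries. Ppp3r2, a regulatory subunit, had 0 counts, where 3 counts would be 0.0613 TPM in replicate 1 and 0.0552 TPM in replicate 2. Of the 7 genes tested, the binomial test called 1 higher and 3 lower in replicate 1. Of 9 genes whose products restrain calcineurin or are the receptors of drugs that do, 6 were detected: the highest were Ppia (3926.25 and 4257.16 TPM), which binds cyclosporin, Fkbp1a (283.21 and 285.73), which binds tacrolimus, Chp1 (32.2 and 35.3) and Cabin1 (22.6 and 25.0). Rcan2, Akap5 and Chp2 were not detected, and of 8 genes tested 0 were called higher and 3 lower in replicate 1.

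NFAT leaves the nucleus after phosphorylation, and 11 of 14 kinases and export genes were detected, led by Csnk1a1 (202.94 and 205.38 TPM), the exportin Xpo1 (153.17 and 176.34), Csnk1d (103.26 and 99.9) and Gsk3a (53.9 and 55.4). Dyrk1b, Homer2 and Lrrk2 were not detected, and of 12 genes tested 0 were called higher and 4 lower in replicate 1. Of 21 genes listed as partners or targets of NFAT, 12 were detected, and whether NFAT acts on them in these cells was not tested. The highest were the chemokine Ccl22 (3111.99 and 3344.55 TPM), the cytokine Il10 (219.69 and 173.52) and the partner factors Jund (94.6 and 98.3) and Batf (79.5 and 65.5). Of the cytokine genes in this list, all named here after their values were seen apart from Il10, Tnf (21.9 and 18.5 TPM) and Il4 (18.9 and 14.3) were detected, while Il2 and Ifng had 0 counts in both libraries, where 3 counts would be at most 0.166 TPM. Of the 16 genes tested, 4 were called higher and 2 lower in replicate 1.

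**Figure D5:**
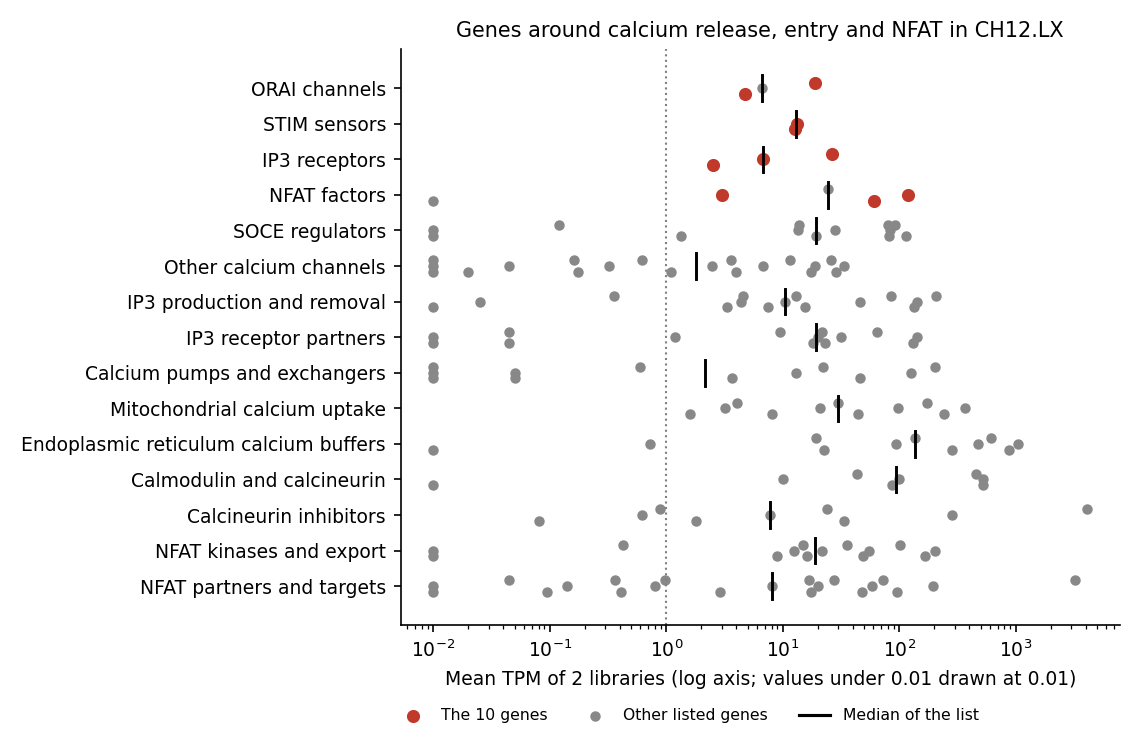
Mean TPM of the 2 CH12.LX libraries (log axis, values under 0.01 drawn at 0.01) for the genes of 15 lists, with the 10 genes in red, the others in grey, a black line at the median of each list and a dotted line at 1 TPM. The 10 genes lie between 2.51 and 118.57 TPM, and the reticulum buffers, with a median of 136.37 TPM, and calmodulin and calcineurin, with 93.1 TPM, have the highest medians.

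The libraries held 22996547 expected counts in replicate 1 and 25715408 in replicate 2, and the 10 genes had between 255 and 10896 counts each. Counts of the 2 libraries were farther apart than sampling noise allows (chi-square divided by its degrees of freedom, 33.2 over the genes tested), and they were treated as separate samples. All 8 B cell markers were detected. Of the markers of other cells, 2 of 12 T cell, 2 of 10 myeloid, 0 of 6 NK cell and 3 of 8 erythroid and stromal genes were detected. The T cell markers summed to 6.59 TPM in replicate 1 and 7.68 TPM in replicate 2, of which Cd3g (1.69 and 2.11) and Cd3d (1.14 and 1.63) were detected and Trbc2, Bcl11b and Themis were at 0 in both. The myeloid markers summed to 4.2 and 3.33 TPM, with Itgam (1.79 and 1.24) and Adgre1 (1.64 and 1.34) detected, and the NK cell markers to 0.52 and 0.5 TPM. The erythroid and stromal list had the largest sum outside B cells, at 17.28 and 16.7 TPM, most of it from Pecam1 (14.65 and 14.1).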

How the data were processed

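Per the labels and the notes deposited with the samples, polyadenylated RNA of 2 CH12.LX biosamples was sequenced single-end and quantified with GENCODE M4 on mm10, the same assembly as GRCm38. Strandedness, aligner, quantification tool and versions were not given in the sources used here. Expected counts, as deposited, are estimated reads per gene that need not be whole. The deposited TPM and FPKM values are corrected for length and scaled to the depth of each library by the authors, and the deposited percent values split the TPM of each gene over its transcripts. Posterior means and SDs are a second deposited estimate.

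Names, coordinates and transcript types came from GENCODE M21 by identifier without version (42462 of 43346 entries, 98.0%). Further entries that name no Ensembl gene took 0.0426% of replicate 1 counts and 0.0539% of replicate 2 counts, and stayed out of library sizes and tests. They held 18255 and 22456 TPM, so that TPM over Ensembl entries alone would be about 2.1% higher.

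Levels are means ± SD over the 2 libraries with no test, since the labels give 1 group. For the difference between libraries, rounded expected counts entered an exact binomial test, two-sided (scipy 1.17.1) on TMM effective library sizes (edgeR 4.0.16, R 4.3.3), with Benjamini-Hochberg adjustment over 15340 genes with at least 10 counts summed. edgeR's quasi-likelihood test needs residual degrees of freedom, which 1 library a side does not leave. Log2 ratios used a pseudocount of 0.5. Alternatives were DESeq2 1.42.0 size factors, library totals, other count minimums, posterior means and edgeR's exact negative binomial test. P-values measure the difference between these libraries, whose spread may be technical in part.

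Tested on simulated counts with counting error only, for replicate 1 against replicate 2 over 15340 genes, calls were made for 59 of 100 genes changed 1.5-fold, 68 of 100 changed 2-fold and 5 of 15140 unchanged genes. A count of 0 was bounded with 3 counts per library. Transcript starts within 500 bases were grouped. The genes named are the 10 genes and their paralogues Orai3, Nfatc4 and Nfat5 and, for each list, up to 4 with the highest mean TPM and, where at most 4 were undetected, those. A gene that this rule names is not reported here by name. Outside the rule, and chosen after their values were seen, are Ryr1, Ryr2, Ryr3, Il2, Ifng, Il4, Tnf, the markers of other cell types named, the genes overlapping Itpr3 and Nfatc3, and Plcg1, Ppp3cb, Ppp3cc, Atp2b2, Atp2b3 and Atp2b4. The 10 genes and the lists were chosen with earlier results of these data known. No gene was chosen by likeness of pattern, since 2 libraries of 1 group hold no pattern to match.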

Additional observations from a re-analysis of the deposited data

How the results depend on the processing

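Itpr1, Orai1 and Nfatc1 led their families under every alternative run, while the leading STIM gene changed with the scale and with the library. By expected counts, which are not per length, the mean share was 50.99% for Orai1, 46.29% for Stim2, 75.07% for Itpr1 and 58.19% for Nfatc1. With protein-coding transcripts only it was 61.8% for Orai1 and 74.79% for Itpr1, and this was not run for the STIM genes, since most Stim2 transcripts have no type in GENCODE M21. Without Orai3 the share of Orai1 was 79.96%, with Nfat5 in the family that of Nfatc1 was 57.21%, and by posterior mean TPM that of Itpr1 was 71.71%. All 10 genes were detected at 0.5 TPM, at 1 FPKM and in each library alone, and 7 at 5 TPM. The binomial test called 4 of the 10 genes, and 4635 genes in all, under TMM. It called the same 4 of the 10 with DESeq2 size factors, library totals, both other count minimums and posterior mean counts. With library totals 40.5% of all calls were lower in replicate 1, against 48.0% under TMM, and the log2 ratio of Stim1 was 0.005 in place of -0.02, with neither past the threshold. The negative binomial test called 0 of the 10 and 389 genes in all, or 0 and 758 with the dispersion of certainly assigned genes, both taken from the difference between the same 2 libraries, which limits how many calls such a test can make. Posterior means moved 4 of the 10 levels by more than 1 SD, and the largest move in percent was that of Itpr2, to 3.49 TPM (39.0% higher). The posterior percent of the leading Itpr2 transcript was 37.9% against 62.3%. No paired analysis was possible because the labels give 1 group, and no library could be left out of a test between 2 libraries. Depth limits Nfatc2 and Orai2 most, at 255 to 384 counts.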

Other observations

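The enzymes and pumps that flank these genes also had a leading paralogue in both libraries. Plcg2 made up 91.4% of the summed TPM of the phospholipase C gamma pair in replicate 1 and 91.7% in replicate 2, with Plcg1 as the remainder. Atp2a3, which encodes the reticulum pump SERCA3, held 61.0% and 62.1% of the SERCA genes, and Atp2a2 held 38.8% and 37.7%. Ppp3ca held 66.4% and 63.7% of the calcineurin catalytic subunits, Ppp3cb 26.8% and 29.9%, and Ppp3cc 6.78% and 6.43%. Among the plasma membrane pumps Atp2b1 held 63.5% and 62.5% and Atp2b4 36.5% and 37.5%, with Atp2b2 and Atp2b3 at 0. These shares are descriptions with no test.

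Nfat5 was divided between starts in the deposited tables. Transcripts that begin near 107293470 on chromosome 8 held 46.1% in replicate 1 and 55.5% in replicate 2, and those that begin near 107338508 held 51.0% and 41.0%, so the order of the starts differed between the libraries.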
